A study of Mus musculus with 45 samples.

Results

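The messenger RNAs described here encode 40 proteins of the large subunit of the mouse cytosolic ribosome. They were chosen by gene name, as the rows of the deposited expression table for Rpl3, Rpl4, Rpl6 and so on to Rpl41. Rpl5 (the floxed gene of 1 mouse line), its partner Rpl11 and the P-stalk proteins were left out. All 40 were found among the 13449 genes of the table, and 38 of them had at least 1 read in each of the 45 libraries. Rpl10 was at 0 in 3 polysome libraries and Rpl12 in 1.

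The libraries came from livers of mouse embryos (stage E15.5), when the liver is the main site of blood formation. VavCre Rpl5flox/+ embryos carried the VavCre transgene, in which the Vav promoter drives Cre recombinase in blood cells, and 1 floxed allele of Rpl5. VavCre Rps19flox/+ embryos carried the same transgene and 1 floxed allele of Rps19, a small-subunit gene. Rpl5flox/+ and Rps19flox/+ embryos carried the floxed allele of each line without the transgene, and served as the control of that line. No group carried VavCre without a floxed allele, so the transgene and the deletion cannot be told apart. Ter119+ cells (maturing erythroid cells) and Kit+ cells (blood progenitors) were taken with magnetic beads, the Ter119+ cells from what remained after Kit+ selection. Livers were treated with emetine at 25 µg/mL before selection, and the selected cells were pooled by genotype, lysed and separated on sucrose gradients into a polysome fraction and a cytoplasm fraction. Each pool had a batch label of its own and held 1 genotype and 1 cell type. Of the 16 groups, 14 had 3 libraries. VavCre Rpl5flox/+ Kit+ polysome had 1 library, and Rpl5flox/+ Ter119+ polysome had 2.

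The large subunit holds the centre where peptide bonds form, the tunnel through which the new chain leaves, and the surface that meets the small subunit. Most mRNAs of its proteins begin with a run of pyrimidines, the terminal oligopyrimidine or TOP motif, through which the mTOR pathway and the binding protein LARP1 set how strongly they are translated. In humans, loss of 1 copy of any of several ribosomal protein genes causes Diamond-Blackfan anemia, in which red cell precursors fail while other lineages are less affected.

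The annotated starts of 6 members are printed here. They are the 3 members highest and the 3 lowest in polysomes relative to cytoplasm among those with a sequence, so that letters and polysome values can be read together. Each line gives 40 bases before and 20 bases from the annotated start on the + strand (RefSeq, GRCm38.p6). Capitals mark the longest run of C and T that begins with C within 10 bases of the start.
Rpl38 at chr11:114668540-114668599: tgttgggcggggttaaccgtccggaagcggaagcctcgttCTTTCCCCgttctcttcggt
Rpl37a at chr1:72711220-72711279: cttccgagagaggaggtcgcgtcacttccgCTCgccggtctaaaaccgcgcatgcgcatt
Rpl35a at chr16:33056442-33056501: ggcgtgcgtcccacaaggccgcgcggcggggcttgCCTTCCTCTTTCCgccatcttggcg
Rpl4 at chr9:64173347-64173406: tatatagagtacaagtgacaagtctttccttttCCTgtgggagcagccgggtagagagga
Rpl12 at chr2:32961672-32961731: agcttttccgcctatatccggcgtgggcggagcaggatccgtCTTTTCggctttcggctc
Rpl10 at chrX:74270776-74270835: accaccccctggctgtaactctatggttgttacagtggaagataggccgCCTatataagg
The run was 8 bases long in Rpl38, 13 in Rpl35a and 6 in Rpl12, and 3 in Rpl37a, Rpl4 and Rpl10. In Rpl4 the capitals are the end of a longer pyrimidine stretch, visible in the printed line, which begins outside the 10-base window and was not counted as a run. Rpl35a has 3 annotated starts, with runs of 13, 3 and 3 bases, and the one with the longest run is shown; the counts that follow take the longest run of each gene. Annotated starts can differ from the starts used in these cells, and the libraries do not place them. Over the 30 members with a RefSeq promoter, 19 (63.3%) had a run of at least 5 bases, against 37.6% of 10587 genes of the table. The ETS motif CCGGAAG stood on either strand of the 300-base promoter in 12 of 30 members, against 2014 of 10587 genes. The YY1 motif AAGATGGC stood there in 3 of 30 members, against 533 genes. Length of run and polysome value were not tested against each other.

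Values are normalised read counts on the authors' scale, recovered from their transformed log2 table. Read totals, in units of 1e+06 (M), were 22.9 to 70.1 M in Kit+ cytoplasm, 45.0 to 123 M in Ter119+ cytoplasm, 1.01 to 37.6 M in Kit+ polysomes and 1.02 to 39.8 M in Ter119+ polysomes. In the polysome libraries 1 gene, Lars2, took between 0.165% and 54.9% of the reads, so shares below are of reads outside Lars2. The sort labels matched their markers: 7 of 7 erythroid genes were higher in Ter119+ than in Kit+ control cytoplasm (median log2 difference 6.16), and 5 of 5 progenitor genes were lower. Hepatocyte genes were present in each cytoplasm group, with a summed normalised count, in units of 1e+03 (k), of 3.63 to 40.1 k in Kit+ cytoplasm and 7.02 to 47.2 k in Ter119+ cytoplasm. A lower value can mean fewer cells of a type or less RNA per cell, and bulk libraries cannot tell these apart. Differences were tested with limma across all genes, and a gene was called at a Benjamini-Hochberg adjusted p under 0.05. The p-values measure the spread between these pools.

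The targeted genes were read first. In Kit+ cytoplasm Rpl5 had 576, 579 and 437 counts in VavCre Rpl5flox/+ pools, against 1096, 1112 and 930 in Rpl5flox/+ pools (log2 difference -0.97 ± 0.15 SE, limma adjusted p = 0.000287). Rps19 had 14495, 12574 and 11750 counts in VavCre Rps19flox/+ Kit+ cytoplasm, against 20144, 16201 and 17767 in Rps19flox/+ (-0.48 ± 0.11 SE, limma adjusted p = 0.00191). In Ter119+ cells Rpl5 had 455, 496 and 549 counts in the cytoplasm libraries labelled VavCre Rpl5flox/+ Ter119+, against 295, 351 and 459 in Rpl5flox/+ Ter119+. The deleted gene was thus higher in the libraries labelled as carrying the deletion (0.44 ± 0.16 SE, limma adjusted p = 0.0278), with overlapping groups. Cdkn1a, the p53 target that encodes p21, was named after its values were seen. It had 7400, 8263 and 8091 counts in those libraries, against 130, 139 and 137 in Rpl5flox/+ Ter119+ cytoplasm. Rps19 had 10787, 13710 and 11573 counts in VavCre Rps19flox/+ Ter119+ cytoplasm, against 13048, 13099 and 15378 in Rps19flox/+ Ter119+ cytoplasm, with overlapping groups and no call (limma adjusted p = 0.302). Results from the libraries labelled VavCre Rpl5flox/+ Ter119+ are given under that wording.

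In Kit+ cytoplasm 25 large-subunit mRNAs were higher with the Rpl5 deletion, and 22 were lower with the Rps19 deletion. With VavCre Rpl5flox/+, 25 of 40 members rose, 1 fell and 14 were not called, while 20.8% of all genes tested were called higher and 16.4% lower. The median log2 difference of the members was 0.32, against 0.03 over all genes tested. With VavCre Rps19flox/+, 22 of 40 fell, 3 rose and 15 were not called, while 26.1% of all genes were called lower and 27.6% higher. The median of the members there was -0.26, against 0.01 over all genes. Without Rpl5flox/+ Kit+ cytoplasm replicate 3, 16 members were called higher in the Rpl5 line.

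Rpl38, which encodes a small protein of the subunit surface known in mice for its part in skeletal patterning, led the rise. It had 16459, 14849 and 12744 counts in VavCre Rpl5flox/+ Kit+ cytoplasm, against 9854, 9866 and 7808 in Rpl5flox/+. Each VavCre pool stood above each control pool, a 1.60-fold difference (log2 0.68 ± 0.12 SE, limma adjusted p = 0.000895). Rpl36, another small surface protein, had 14194, 13942 and 12433 counts in VavCre Rpl5flox/+ Kit+ pools, against 9541, 9550 and 8043 in Rpl5flox/+. Those groups did not overlap either, and Rpl36 rose 1.5-fold (0.58 ± 0.10 SE, limma adjusted p = 0.000474). Rpl41, a very short basic peptide that bridges the subunits, rose 1.39-fold, and Rpl13a 1.37-fold. Rpl10a, a protein of the L1 stalk beside the site where used tRNA leaves, ran the other way. It had 10975, 11885 and 11944 counts in VavCre Rpl5flox/+ Kit+ cytoplasm, against 15119, 13590 and 14318 in Rpl5flox/+. The groups were apart, and Rpl10a was 0.809-fold of control (-0.31 ± 0.10 SE, limma adjusted p = 0.0218). That call was lost without replicate 1 of VavCre Rpl5flox/+ Kit+ cytoplasm (adjusted p = 0.0839), or without replicate 1 (0.0858) or replicate 3 (0.0526) of Rpl5flox/+ Kit+ cytoplasm. With libraries rescaled on abundant genes outside the ribosome, Rpl10a was at -0.25 and not called (limma adjusted p = 0.0513).

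With the Rps19 deletion, Rpl17 and Rpl23 had the largest falls. Rpl17, which lines the mouth of the exit tunnel, had 13162, 13395 and 13007 counts in VavCre Rps19flox/+ Kit+ cytoplasm, against 23544, 19316 and 20629 in Rps19flox/+. The 3 VavCre pools lay close together and below each control pool, at 0.626-fold (-0.68 ± 0.11 SE, limma adjusted p = 0.000179). Rpl23, a protein of the face that meets the small subunit, had 11320, 11738 and 11107 counts in VavCre Rps19flox/+ Kit+ pools, against 20471, 16374 and 18011 in Rps19flox/+. It too was at 0.626-fold with no overlap (limma adjusted p = 0.000183). Rpl26, Rpl35a and Rpl38 fell to 0.682-fold, 0.685-fold and 0.690-fold of Rps19flox/+. The 3 members that rose were Rpl10, Rpl3 and Rpl29. Rpl3, which reaches towards the peptidyl transferase centre, had 30830, 28675 and 29722 counts in VavCre Rps19flox/+ Kit+ cytoplasm, against 25007, 25600 and 23574 in Rps19flox/+. Each VavCre pool stood above each control pool (1.20-fold, limma adjusted p = 0.00709). Rpl29, a peripheral protein, was 1.18-fold of control (limma adjusted p = 0.0209). With libraries rescaled on abundant genes outside the ribosome, neither Rpl3 (limma adjusted p = 0.074) nor Rpl29 (0.165) was called. The call of Rpl29 was also lost without replicate 1 of VavCre Rps19flox/+ Kit+ cytoplasm (0.0636), or without replicate 2 (0.0524) or replicate 3 (0.0593) of Rps19flox/+ Kit+ cytoplasm.

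**Figure D1:**
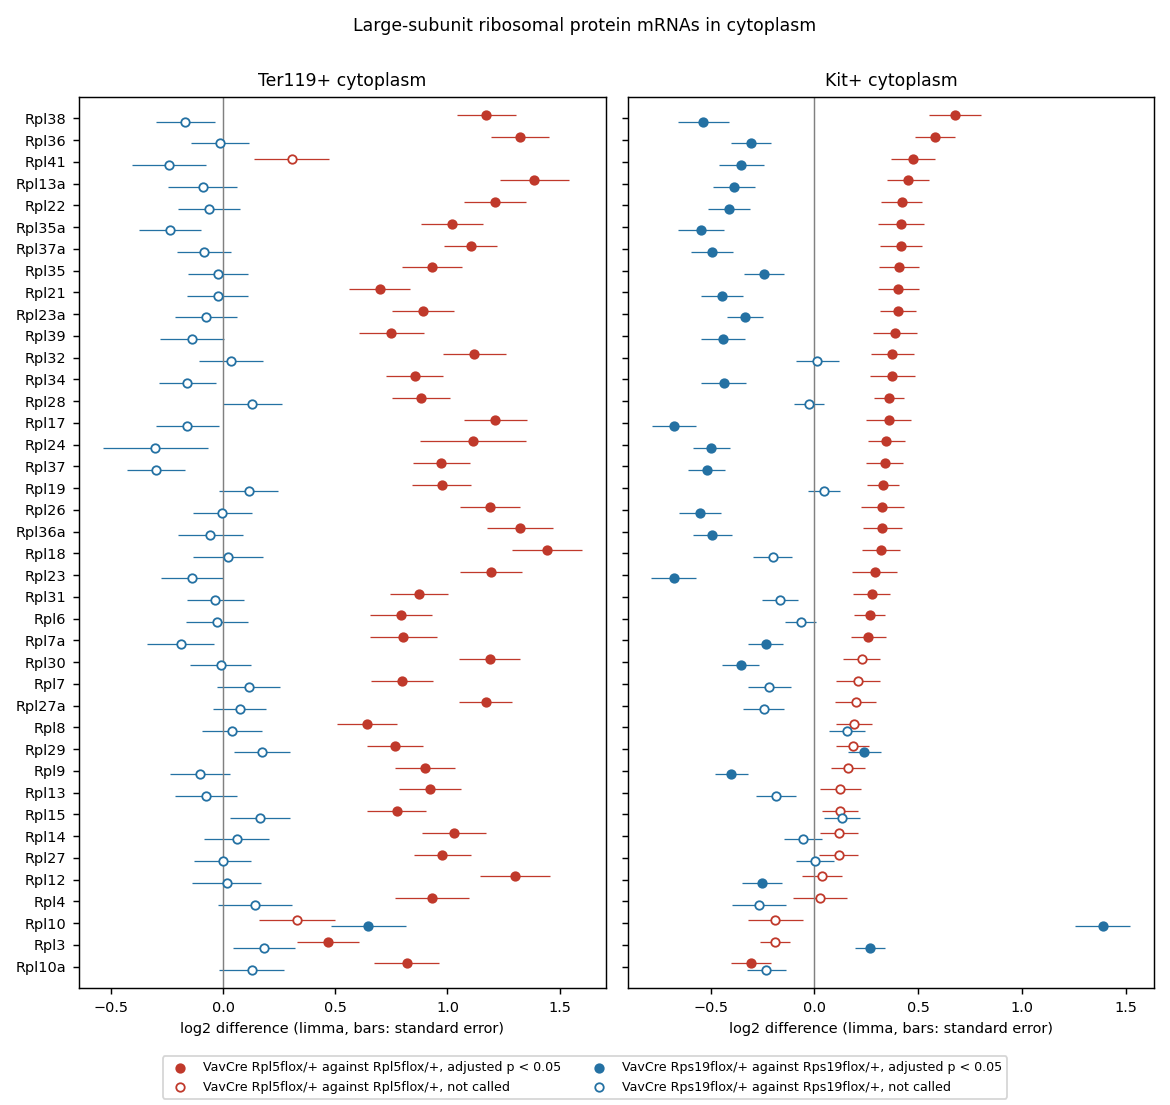
Log2 difference of each of the 40 members between VavCre and floxed pools in Ter119+ (left) and Kit+ (right) cytoplasm, for the Rpl5 line (red) and the Rps19 line (blue). Bars are standard errors of the limma fit, and filled points have an adjusted p under 0.05, 25 red above 0 and 22 blue below 0 in Kit+, and 38 red and 1 blue above 0 in Ter119+.

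The difference between the lines was tested directly, each line against its own floxed pools. In Kit+ cytoplasm the Rpl5 effect was above the Rps19 effect for 28 of 40 members and below it for 2, while 23.2% of all genes were called above and 25.0% below. The median over the members was 0.54, against 0.04 over all genes. Rpl38 differed by 1.21 ± 0.17 SE (limma adjusted p = 0.000116) and Rpl17 by 1.03 ± 0.15 SE (limma adjusted p = 0.000138). The 2 below were Rpl10 (-1.58 ± 0.19 SE, limma adjusted p = 3.44e-05) and Rpl3 (-0.46 ± 0.10 SE, limma adjusted p = 0.00246).

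By role, of 8 proteins that line the exit tunnel, 7 rose with the Rpl5 deletion and 5 fell with the Rps19 deletion. Of 6 that form bridges to the small subunit, 4 rose with the first and 4 fell with the second. Of 7 whose genes are mutated in Diamond-Blackfan anemia, 5 rose with the first and 3 fell with the second. Of Rpl3, Rpl10 and Rpl12, which sit at or near the peptidyl transferase and GTPase centres, none was called with the Rpl5 deletion by limma, and at an unadjusted p under 0.05 there was Rpl3, lower (-0.19, limma adjusted p = 0.0515). With the Rps19 deletion Rpl3 and Rpl10 were called higher, with the limits given where each is described, while 27.6% of all genes were called higher. These counts stand beside 25 higher and 22 lower of all 40 members, and beside 20.8% of all genes called higher in the Rpl5 line and 26.1% called lower in the Rps19 line; the roles were not tested against the other members. The 32 small-subunit proteins without Rps19 showed 23 higher and 0 lower with the Rpl5 deletion (median 0.36), and 2 higher and 25 lower with the Rps19 deletion (median -0.32).

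Markers of other cells also moved in these pools. The summed level of the 7 erythroid genes was 39.0 to 47.3 k in VavCre Rpl5flox/+ Kit+ cytoplasm, against 99.6 to 132 k in Rpl5flox/+, and each of the 7 fell. All 10 hepatocyte genes rose, with a sum of 21.9 to 40.1 k in VavCre Rpl5flox/+ and 5.66 to 18.1 k in Rpl5flox/+. Of all genes tested in this comparison, 16.4% were called lower and 20.8% higher. Granulocyte and monocyte genes summed to 42.4 to 78.2 k in VavCre Rpl5flox/+ and 19.7 to 21.5 k in Rpl5flox/+. In the Rps19 line that sum was 3.30 to 7.0 k in VavCre Rps19flox/+ and 14.4 to 18.5 k in Rps19flox/+. Erythroid genes were lower in this line too, at 55.1 to 90.1 k in VavCre Rps19flox/+ Kit+ cytoplasm, against 93.1 to 158 k in Rps19flox/+. B-lymphoid genes were lower in both lines, at 0.242 to 0.307 k in VavCre Rpl5flox/+ against 0.993 to 1.31 k in Rpl5flox/+, and at 0.0227 to 0.0440 k in VavCre Rps19flox/+ against 0.517 to 1.05 k in Rps19flox/+. Mast cell genes were at 0.508 to 1.16 k in VavCre Rpl5flox/+ and 0.367 to 0.415 k in Rpl5flox/+, and at 0.0558 to 0.116 k in VavCre Rps19flox/+ and 0.297 to 0.367 k in Rps19flox/+. Megakaryocyte genes summed to 0.257 to 0.303 k in VavCre Rps19flox/+ Kit+ cytoplasm and 0.563 to 0.629 k in Rps19flox/+. Progenitor genes, of the sorted type, summed to 5.37 to 6.04 k in VavCre Rpl5flox/+ Kit+ cytoplasm and 4.24 to 4.97 k in Rpl5flox/+. They overlapped in the Rps19 line, at 3.32 to 4.07 k in VavCre Rps19flox/+ and 3.76 to 4.44 k in Rps19flox/+. Macrophage genes were at 0.395 to 0.655 k in VavCre Rpl5flox/+ and 0.201 to 0.391 k in Rpl5flox/+, and overlapped in the Rps19 line. No marker of these lists was at 0 throughout a cytoplasm group. The part of these shifts in the ribosomal protein values was not tested.

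Rpl10 encodes a protein placed late in assembly beside the peptidyl transferase centre. It had 8703, 8125 and 7974 counts in VavCre Rps19flox/+ Kit+ cytoplasm, against 2661, 3419 and 3418 in Rps19flox/+. The groups were far apart, a 2.62-fold rise (1.39 ± 0.13 SE, limma adjusted p = 3.63e-06). The table has a second row, Rpl10-ps3, named as a pseudogene of Rpl10. Over the 24 cytoplasm libraries that row held 8053 to 24399 counts, and the Rpl10 row held 2411 to 8703. Rpl10-ps3 had 13801, 11502 and 11255 counts in VavCre Rps19flox/+ Kit+ cytoplasm, against 14409, 14260 and 14773 in Rps19flox/+. It thus fell where Rpl10 rose (-0.25 ± 0.09 SE, limma adjusted p = 0.0289). With the Rpl5 deletion Rpl10-ps3 rose in Kit+ cytoplasm (0.37 ± 0.09 SE, limma adjusted p = 0.00611), while Rpl10 was not called (-0.19, limma adjusted p = 0.297).

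When both rows were summed, a choice made after seeing the data, the rise of Rpl10 in VavCre Rps19flox/+ Kit+ cytoplasm was 0.21 (limma adjusted p = 0.0525) and not called. The summed value was not called between the lines (0.07, limma adjusted p = 0.66), where the Rpl10 row alone gave -1.58. How reads were shared between the rows was not tested. The division of reads between Rpl10 and its annotated copy is therefore uncertain, and so is the direction of Rpl10 given here.

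**Figure D2:**
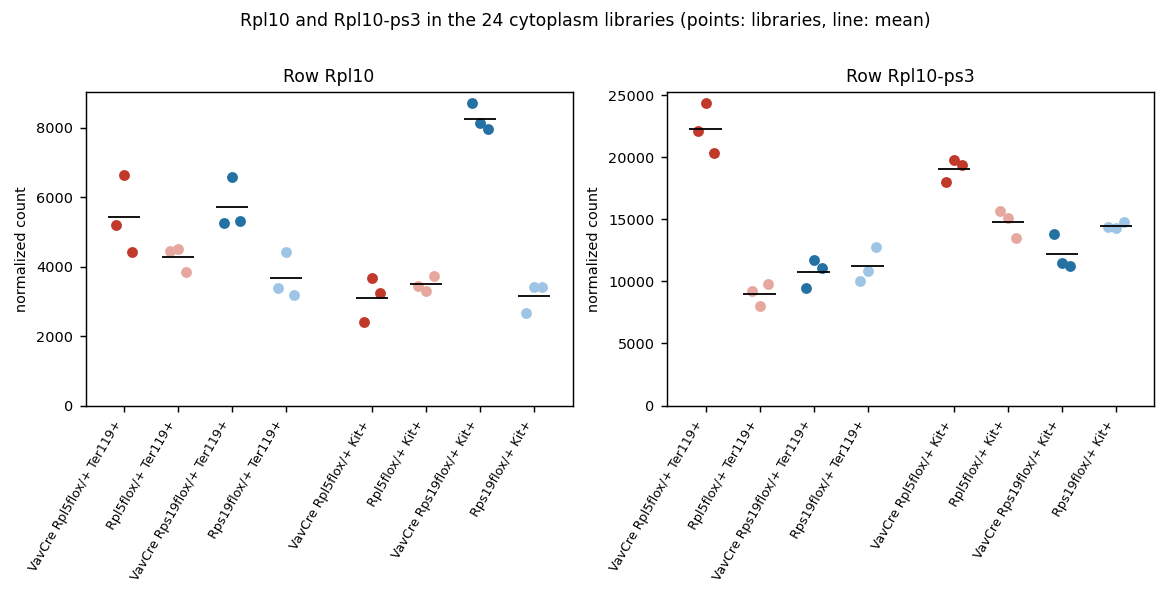
Normalised counts of the rows Rpl10 (left) and Rpl10-ps3 (right) in the 24 cytoplasm libraries, by genotype, with Ter119+ groups left of Kit+ groups; lines are means of 3 libraries. In Kit+ cytoplasm the Rpl10 row is highest in VavCre Rps19flox/+ (7974 to 8703), and 2 of those 3 libraries are the lowest of the 12 Kit+ libraries for the Rpl10-ps3 row.

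Rpl22 is a member whose loss mice tolerate, with the paralog Rpl22l1 known to stand in for it. Rpl22 had 14276, 13936 and 12089 counts in VavCre Rpl5flox/+ Kit+ cytoplasm, against 10499, 10671 and 8948 in Rpl5flox/+, and rose 1.34-fold (limma adjusted p = 0.00492). Rpl22l1 had 1308, 1246 and 993 counts in the same VavCre pools, against 4462, 4036 and 3033 in Rpl5flox/+. The groups did not overlap, and it fell (-1.68 ± 0.13 SE, limma adjusted p = 1.17e-06). In the Rps19 line Rpl22l1 had 872, 895 and 884 counts in VavCre Rps19flox/+ Kit+ cytoplasm, against 4106, 3362 and 3671 in Rps19flox/+ (-2.05 ± 0.13 SE, limma adjusted p = 1.96e-07). There Rpl22 had 7977, 7123 and 6876 counts in VavCre Rps19flox/+ Kit+ cytoplasm, against 10596, 8901 and 9755 in Rps19flox/+, and fell as well (-0.41). The paralog thus fell in both lines, and Rpl22 rose in 1 and fell in the other. Rpl22l1 also fell in Ter119+ cytoplasm, with a log2 difference of -0.77 in the libraries labelled VavCre Rpl5flox/+ (limma adjusted p = 7.88e-05) and of -1.18 in VavCre Rps19flox/+ (limma adjusted p = 3.85e-05). Rpl36al, the paralog of Rpl36a, rose in VavCre Rpl5flox/+ Kit+ cytoplasm (0.36, limma adjusted p = 0.0189) and fell in VavCre Rps19flox/+ Kit+ cytoplasm (-0.65, limma adjusted p = 0.000226). Rpl7l1, the paralog of Rpl7, rose in both (0.28 and 0.31).

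In Ter119+ cytoplasm the large-subunit mRNAs were higher in the libraries labelled VavCre Rpl5flox/+ and near their controls with VavCre Rps19flox/+. In the libraries labelled VavCre Rpl5flox/+ Ter119+, 38 of 40 members were higher than in Rpl5flox/+ and none was lower, while 35.3% of all genes tested were called higher and 30.1% lower. At an unadjusted p under 0.05 the limma counts were also 38 and 0. The median over the members was 0.95, against 0.16 over all genes. With VavCre Rps19flox/+, only Rpl10 of 40 was called higher, 1.57-fold, and none lower, while 12.5% of all genes were called higher and 13.3% lower. The unadjusted limma counts were 1 and 1, and the median was -0.02, against -0.03 over all genes. The Rpl10 call was lost without VavCre Rps19flox/+ Ter119+ cytoplasm replicate 2 (limma adjusted p = 0.0627) and with the Rpl10 and Rpl10-ps3 rows summed (0.463).

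Rpl18, a gene of Diamond-Blackfan anemia, had 18673, 17123 and 17254 counts in the libraries labelled VavCre Rpl5flox/+ Ter119+, against 6331, 5505 and 7851 in Rpl5flox/+ Ter119+ cytoplasm. The groups were widely apart, at 2.72-fold (1.44 ± 0.16 SE, limma adjusted p = 3.27e-06). Rpl13a, known in human cells as part of a complex that silences inflammatory mRNAs, had 49526, 52056 and 47853 counts in those libraries, against 18133, 16885 and 22515 in Rpl5flox/+. It was 2.61-fold higher with no overlap (limma adjusted p = 3.99e-06). Rpl36 and Rpl36a were each 2.50-fold higher and Rpl12, of the GTPase centre, 2.46-fold. Rpl3 was the least changed of the members called, at 1.38-fold (limma adjusted p = 0.00901). The 2 members not called were Rpl10 (0.33, limma adjusted p = 0.101) and Rpl41 (0.30, limma adjusted p = 0.121). Rpl10-ps3 was higher with the others (1.31 ± 0.14 SE, limma adjusted p = 3.37e-06).

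As a share of reads outside Lars2, the 40 members took 4.44%, 3.94% and 4.72% in the cytoplasm libraries labelled VavCre Rpl5flox/+ Ter119+, against 0.862%, 0.612% and 1.40% in Rpl5flox/+. They took 1.58%, 2.00% and 1.70% in VavCre Rps19flox/+ Ter119+ cytoplasm, against 1.18%, 1.27% and 1.39% in Rps19flox/+. Neither pair of groups overlapped. In Kit+ cytoplasm the shares were 8.09%, 7.95% and 7.87% in VavCre Rpl5flox/+, against 7.02%, 7.0% and 6.56% in Rpl5flox/+. They were 6.13%, 5.74% and 5.57% in VavCre Rps19flox/+ Kit+ cytoplasm, against 7.13%, 6.65% and 6.86% in Rps19flox/+. A share also moves with the globin and other abundant reads in the same library, and these shares were not tested.

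**Figure D3:**
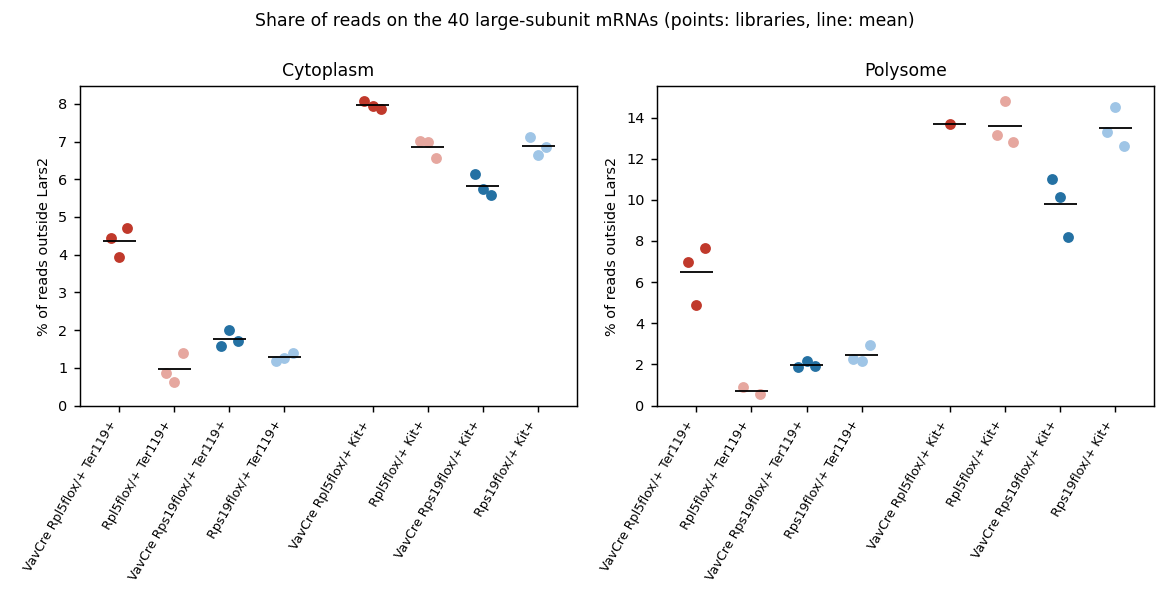
Reads on the 40 members as a percent of reads outside Lars2, per library, in cytoplasm (left) and polysomes (right), with Ter119+ groups left of Kit+ groups; lines are group means. In Ter119+ cytoplasm the 3 libraries labelled VavCre Rpl5flox/+ (3.94% to 4.72%) stand apart from the other 9 (0.612% to 2.00%).

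The libraries labelled VavCre Rpl5flox/+ Ter119+ also stood apart in markers. The 5 progenitor genes summed to 2.84 to 2.91 k in them, against 0.281 to 0.656 k in Rpl5flox/+ Ter119+ cytoplasm and 3.32 to 6.04 k over all Kit+ cytoplasm libraries. All 5 were called higher (median log2 difference 2.29). The 7 erythroid genes summed to 2166 to 3726 k in those libraries, against 7400 to 18155 k in Rpl5flox/+ Ter119+ cytoplasm, and all 7 were lower (median -2.41). Granulocyte and monocyte genes summed to 29.8 to 61.4 k, against 5.07 to 8.60 k in Rpl5flox/+. In the Rps19 line the progenitor sum was 0.756 to 1.05 k in VavCre Rps19flox/+ Ter119+ cytoplasm and 0.386 to 0.452 k in Rps19flox/+. Erythroid genes there were at 5464 to 5891 k in VavCre Rps19flox/+, against 9044 to 9654 k in Rps19flox/+, and granulocyte and monocyte genes at 1.71 to 2.80 k in VavCre Rps19flox/+, against 4.27 to 6.65 k in Rps19flox/+. The share of other cells in the ribosomal protein difference was not tested.

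The differences between these effects were tested directly. The difference of the Ter119+ cytoplasm libraries labelled VavCre Rpl5flox/+ from Rpl5flox/+ was above the Rps19 effect for 37 of 40 members and below it for none (20.5% and 20.9% of all genes called), with a median of 1.00, against 0.10 over all genes. Rpl18 differed by 1.42 ± 0.22 SE (limma adjusted p = 0.000293). That same difference in the labelled Ter119+ libraries was above the Rpl5 effect in Kit+ cytoplasm for 36 members and below it for none (25.8% and 22.6% of all genes called). Rpl12 differed by 1.27 ± 0.18 SE (limma adjusted p = 9.48e-06), Rpl18 by 1.12 ± 0.18 SE, and Rpl10a, which had fallen in Kit+ cytoplasm, by 1.12 ± 0.17 SE (limma adjusted p = 1.4e-05). The unadjusted limma counts were 38 and 0 for the first of these tests and 37 and 0 for the second. The Rps19 effect differed between Ter119+ and Kit+ for 4 members, 3 above and 1 below, while 3.93% of all genes were called above and 8.35% below. Rpl26, Rpl23 and Rpl17 were above (0.55, 0.54 and 0.52) and Rpl10 below (-0.74), with adjusted p between 0.0293 and 0.0499. Leaving out 1 library moved the count above to between 0 and 5. It was 0 without Kit+ cytoplasm replicate 1 of either group of the Rps19 line, VavCre Rps19flox/+ Kit+ replicate 3, Rps19flox/+ Ter119+ replicate 1 or 2, or VavCre Rps19flox/+ Ter119+ replicate 2. It was 1 without VavCre Rps19flox/+ Kit+ replicate 2, Rps19flox/+ Kit+ replicate 3 or VavCre Rps19flox/+ Ter119+ replicate 3, and 5 without Rps19flox/+ Ter119+ replicate 3. The Rpl10 call was lost in 5 of those fits, after rescaling and with the Rpl10 rows summed. The fit given here used no block for replicate number. With a block joining same-numbered Kit+ and Ter119+ pools of a genotype, Rpl26 (limma adjusted p = 0.0695), Rpl23 (0.0973) and Rpl17 (0.108) were not called.

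Between the cell types themselves, the members were lower in Ter119+ than in Kit+ control cytoplasm. Of 40, 33 were lower and 2 higher, while 42.7% of all genes tested were called lower and 35.8% higher. The median was -0.53 over the members and -0.13 over all genes. Rpl12 had 561, 531 and 772 counts in Rpl5flox/+ Ter119+ cytoplasm and 722, 734 and 891 in Rps19flox/+ Ter119+ cytoplasm, against 2116, 2261 and 1770 in Rpl5flox/+ Kit+ cytoplasm and 2067, 1863 and 2006 in Rps19flox/+ Kit+ cytoplasm. Each Ter119+ pool was below each Kit+ pool, and the groups were far apart (0.349-fold, -1.52 ± 0.11 SE, limma adjusted p = 6.8e-09). Rpl18 was at 0.471-fold, Rpl30 at 0.531-fold and Rpl22 at 0.541-fold in Ter119+ against Kit+ control cytoplasm. All 7 members of the Diamond-Blackfan list were lower in Ter119+.

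Rpl41 and Rpl10 were the 2 members called higher in Ter119+ cells, and both turned round when libraries were rescaled. Rpl41 had 37631, 47747 and 35244 counts in Rpl5flox/+ Ter119+ cytoplasm and 37866, 40704 and 45922 in Rps19flox/+ Ter119+ cytoplasm, against 32578, 31026 and 27119 in Rpl5flox/+ Kit+ cytoplasm and 33556, 28136 and 30600 in Rps19flox/+ Kit+ cytoplasm. Each Ter119+ pool was above each Kit+ pool on the authors' scale (1.33-fold, limma adjusted p = 0.0022), and the log2 difference was -0.06 after that rescaling. Rpl10 differed by 0.25 (limma adjusted p = 0.0351), by -0.24 after rescaling and by -0.36 with Rpl10-ps3 added. The rescaling moved the median of all genes to -0.61 and that of the members to -1.01. On the authors' scale, without rescaling, 24 of 27 assembly factors of the large subunit were lower too (median -1.30), while 42.7% of all genes were called lower. Rsl24d1 was at -2.46 and Wdr12 at -2.14 on that scale.

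The polysome fraction was then set against the cytoplasm of the same pool. In control Kit+ pools 29 of 40 members were higher on polysomes and 6 lower, while 8.74% of all genes tested were called higher and 50.6% lower. The median was 1.00 over the members and -1.34 over all genes. In control Ter119+ pools 24 were higher and 1 lower, while 2.87% of all genes were called higher and 5.59% lower, with a median of 0.70 against -0.64. These are differences on the authors' scale, in which the polysome libraries' median gene lies below 0. They do not give the fraction of an mRNA that is bound. Control Kit+ polysome libraries had 1.01 to 7.17 M reads with 10.3% to 54.9% on Lars2. Control Kit+ cytoplasm had 29.3 to 41.7 M with 0.559% to 2.12%. Fraction, depth and Lars2 share cannot be told apart in these Kit+ pools. Control Ter119+ polysome libraries had 4.59 to 39.8 M reads, against 45.0 to 123 M in cytoplasm, so fraction and depth cannot be told apart there. The median of the 40 members per pool was 0.56 and 0.76 in Rpl5flox/+ Ter119+ pools and 0.90, 0.68 and 0.76 in Rps19flox/+ Ter119+ pools, against 0.80, 1.25 and 0.91 in Rpl5flox/+ Kit+ pools and 0.76, 1.17 and 0.75 in Rps19flox/+ Kit+ pools. The ranges of the cell types overlap.

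Rpl38 had the largest difference. On Kit+ polysomes it had 194929, 212052 and 182892 counts in Rpl5flox/+ and 150478, 149337 and 157247 in Rps19flox/+, against 9854, 9866 and 7808 in the cytoplasm of the first and 10096, 7957 and 8559 in that of the second. In each of the 6 pools the polysome value was far above the cytoplasm value, on average 19.2-fold (4.27 ± 0.08 SE, limma adjusted p = 2.04e-09). Rpl37a, Rpl35a, Rpl36 and Rpl37 followed at 7.26-fold, 6.73-fold, 6.62-fold and 6.40-fold. Rpl38, Rpl37, Rpl37a and Rpl36 encode some of the smallest proteins of the subunit. Rpl41, a very short peptide, stood below Rpl37 in Rpl5flox/+ Kit+ pool 1 (log2 1.99 against 2.66). The same held in Rps19flox/+ Kit+ pool 1 (2.11 against 2.65) and pool 2 (2.66 against 2.97). Protein size was not tested against polysome level, and transcript lengths were not used here.

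Rpl4 encodes a protein that lines the exit tunnel. It had 8259, 11850 and 10381 counts on Rpl5flox/+ Kit+ polysomes and 8993, 11636 and 11355 on Rps19flox/+ Kit+ polysomes, against 36125, 36647 and 28861 in the cytoplasm of the first and 35365, 35929 and 32534 in that of the second. Each polysome library was below each cytoplasm library, at 0.303-fold (-1.72 ± 0.12 SE, limma adjusted p = 5.46e-06). Rpl29 was at 0.575-fold (limma adjusted p = 8.01e-05). Rpl10 was at 0 on polysomes in 2 of the 6 pools and at 137 to 1082 in the others, so its fitted difference (limma adjusted p = 0.00278) gives no fold. Rpl10-ps3 was also lower on polysomes (limma adjusted p = 5.22e-05), as was the sum of both rows (-1.23, limma adjusted p = 3.32e-05). Rpl12 was at 0 in 1 pool (limma adjusted p = 0.0258), and its call was lost without any 1 of the Rpl5flox/+ Kit+ pools. Rpl17 (-0.46, limma adjusted p = 0.0359) lost its call without Rpl5flox/+ pool 1 or 3 or Rps19flox/+ pool 1 or 3. Rpl15 (-0.35) was at the threshold with a limma adjusted p of 0.05, and lost its call in 5 of the 6 fits that left out 1 pool. With libraries rescaled, 3 of the 6 were called lower (Rpl4, Rpl10 and Rpl29). Rpl15 was then at -0.01 (limma adjusted p = 0.947), Rpl17 at -0.12 (0.552) and Rpl12 was not called (0.0539).

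**Figure D4:**
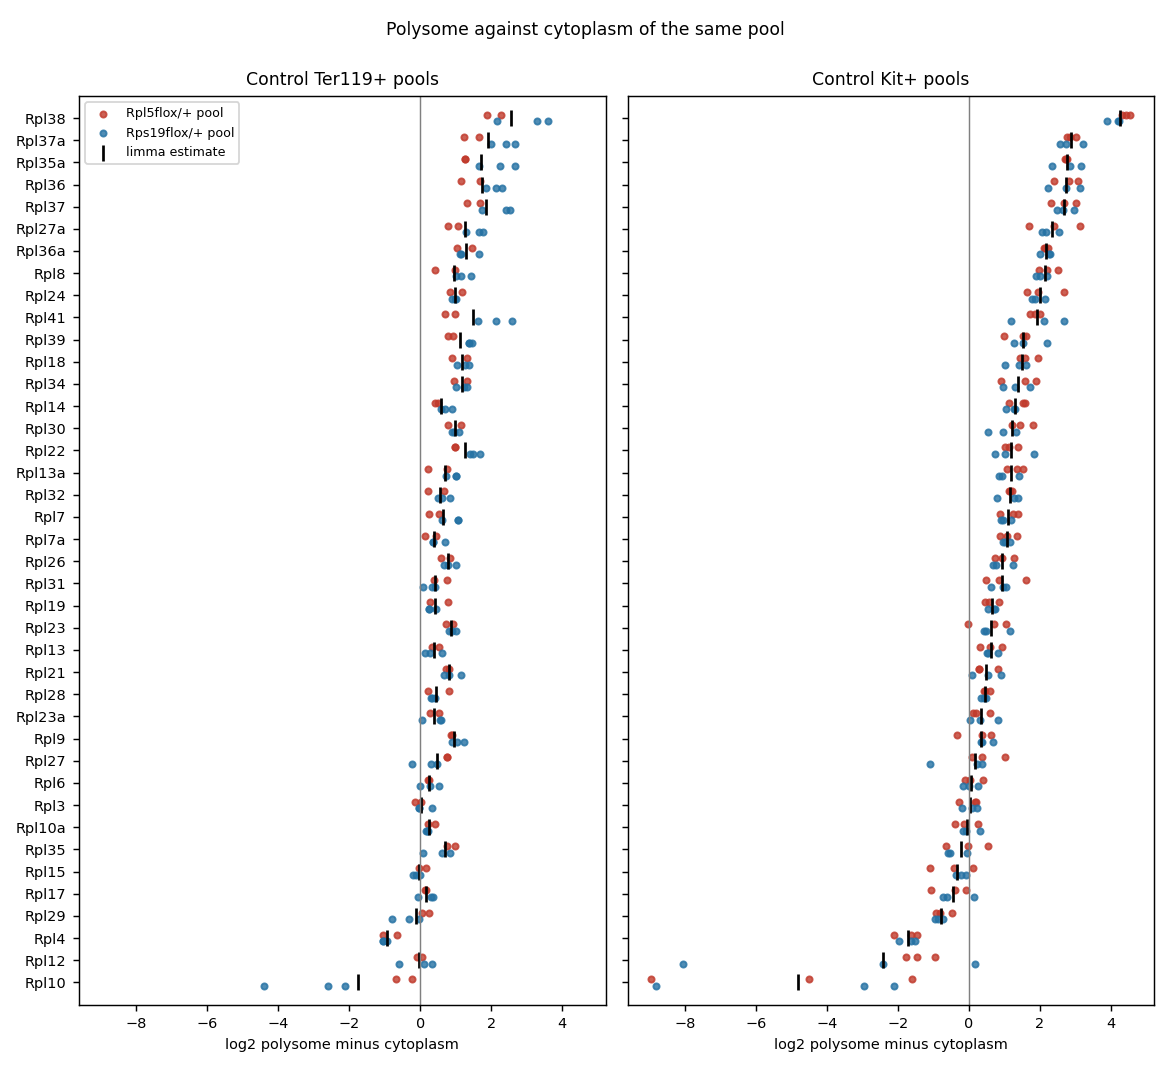
Log2 polysome minus cytoplasm of each member in each control pool, for Ter119+ (left, 5 pools) and Kit+ (right, 6 pools); black marks are limma estimates and members are ordered by the Kit+ estimate. Rpl38 is at the top in both panels, and Rpl4, Rpl12 and Rpl10 are at the bottom in Kit+ pools.

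In control Ter119+ pools Rpl38 again led at 5.85-fold (2.55 ± 0.25 SE, limma adjusted p = 0.000152), followed by Rpl37a at 3.73-fold and Rpl37 at 3.62-fold, and Rpl4 was the 1 member lower (0.525-fold, limma adjusted p = 0.00619), a call lost without Rpl5flox/+ Ter119+ pool 2 (limma adjusted p = 0.1). The polysome difference of Rpl38 was 1.87 and 2.29 in Rpl5flox/+ Ter119+ pools and 3.30, 2.16 and 3.60 in Rps19flox/+ Ter119+ pools, against 4.30, 4.42 and 4.55 in Rpl5flox/+ Kit+ pools and 3.90, 4.23 and 4.20 in Rps19flox/+ Kit+ pools. Each Ter119+ pool was below each Kit+ pool. The test of that difference between cell types gave -1.72 ± 0.26 SE for Rpl38 (limma adjusted p = 0.00118) and -1.18 ± 0.13 SE for Rpl8, which contacts the peptidyl transferase region and bridges the subunits (limma adjusted p = 5.61e-05). It called 12 members lower and 2 higher (Rpl4, 0.80, and Rpl35, 0.91), while 1.76% of all genes were called lower and 2.92% higher. Without Rpl5flox/+ Ter119+ pool 1, 7 were called lower. The calls of Rpl4 and Rpl35 were each lost in at least 5 of the fits that left out 1 pool. The control Ter119+ polysome libraries had 4.59 to 39.8 M reads with 0.165% to 17.3% on Lars2, against 1.01 to 7.17 M with 10.3% to 54.9% in the control Kit+ polysome libraries. Cell type, depth and Lars2 share cannot be told apart in this comparison. On polysomes alone, 23 members were lower in Ter119+ than in Kit+ controls and none was higher (7.26% and 16.0% of all genes), with unadjusted limma counts of 25 and 3.

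All 6 members that bridge to the small subunit were higher on Kit+ control polysomes, as were 5 of 8 at the exit tunnel, where Rpl4 and Rpl17 were lower. Of the 32 small-subunit mRNAs 26 were higher and 1 lower (median 1.34). Of 20 other mRNAs with a TOP motif, 3 were higher and 8 lower, with Eef1d at 2.84 and Eef1a1 at -1.42, while 8.74% of all genes were called higher and 50.6% lower. Of the 9 regulators of TOP mRNAs, 8 were lower and none higher (limma, adjusted).

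The deletions were also compared on polysomes, where depth and the Lars2 share differed with genotype. On Kit+ polysomes VavCre Rps19flox/+ libraries had 10.8, 24.4 and 37.6 M reads with 4.51%, 0.511% and 0.382% on Lars2, against 1.01, 7.17 and 1.83 M with 43.0%, 10.3% and 54.9% in Rps19flox/+. Genotype, depth and Lars2 share cannot be told apart in this comparison. In VavCre Rps19flox/+, 10 of 40 members fell and 3 rose, while 3.68% of all genes tested were called lower and 6.19% higher. The median was -0.38 over the members and 1.11 over all genes. Granulocyte and monocyte genes summed to 2.43 to 5.89 k on VavCre Rps19flox/+ Kit+ polysomes, against 22.2 to 32.1 k on Rps19flox/+, and erythroid genes to 82.1 to 126 k in VavCre Rps19flox/+, against 166 to 366 k in Rps19flox/+. No marker of these lists was at 0 throughout either group, and their part in the polysome values was not tested.

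On Kit+ polysomes the 40 members took 11.0%, 10.1% and 8.2% of reads outside Lars2 in VavCre Rps19flox/+, against 13.3%, 14.5% and 12.6% in Rps19flox/+. Each VavCre library was below each control library. On Ter119+ polysomes they took 1.88%, 2.17% and 1.92% in VavCre Rps19flox/+, against 2.28%, 2.15% and 2.92% in Rps19flox/+, with overlapping groups. In the Ter119+ polysome libraries with the label VavCre Rpl5flox/+ they took 6.99%, 4.87% and 7.64%, against 0.885% and 0.568% in Rpl5flox/+. The 1 VavCre Rpl5flox/+ Kit+ polysome library had 13.7%, within the 12.8% to 14.8% of the Rpl5flox/+ Kit+ libraries.

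Rpl38 had 22805, 23761 and 14697 counts on VavCre Rps19flox/+ Kit+ polysomes, against 150478, 149337 and 157247 on Rps19flox/+ Kit+ polysomes. The groups were far apart, at 0.131-fold (-2.93 ± 0.19 SE, limma adjusted p = 5.4e-05). Rpl35a had 21364, 25080 and 17387 counts in VavCre Rps19flox/+, against 100235, 101481 and 62107 in Rps19flox/+, at 0.245-fold (limma adjusted p = 0.000626). Rpl37 was at 0.263-fold. Rpl4 and Rpl29, both low on control polysomes, rose. Rpl4 had 31806, 26643 and 27433 counts on VavCre Rps19flox/+ Kit+ polysomes, against 8993, 11636 and 11355 on Rps19flox/+, 2.69-fold (limma adjusted p = 0.00135). Rpl29 had 14412, 14921 and 15575 counts in VavCre Rps19flox/+, against 5172, 5972 and 5386 in Rps19flox/+, 2.72-fold (limma adjusted p = 0.00108). Neither gene's groups overlapped. Rpl35 was also called (2.37-fold, limma adjusted p = 0.0424), a call lost without any 1 of 5 libraries of these groups.

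Set against the cytoplasm of the same pool, Rpl38 also fell and Rpl4 rose. Rpl38 was 1.77, 1.97 and 1.40 above cytoplasm in VavCre Rps19flox/+ Kit+ pools, against 3.90, 4.23 and 4.20 in Rps19flox/+, a change of -2.39 ± 0.17 SE (limma adjusted p = 0.000125). Rpl4 was 0.43, -0.23 and -0.22 in VavCre Rps19flox/+ Kit+ pools, against -1.97, -1.63 and -1.52 in Rps19flox/+, a change of 1.70 ± 0.23 SE (limma adjusted p = 0.00597). In all, 11 members changed downwards and 3 upwards, while 2.70% and 5.81% of all genes did. The count downwards was 6 without any 1 of 4 pools, Rps19flox/+ pool 1 and each of the VavCre Rps19flox/+ pools. With array weights the upward calls of Rpl4 (limma adjusted p = 0.0625), Rpl29 (0.0566) and Rpl35 (0.0905) were lost. Downward calls were fewer then too, as given at the end. Rpl35 also lost its call in 5 fits that left out 1 pool, and Rpl29 in 2. Genotype, depth and Lars2 share of the polysome libraries cannot be told apart in this change.

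On Ter119+ polysomes VavCre Rps19flox/+ had 6 members lower than Rps19flox/+ and none higher, while 0.575% of all genes were called lower and 0.226% higher. The unadjusted limma counts were 22 and 3. Rpl38 had 14294, 8647 and 12441 counts in VavCre Rps19flox/+ Ter119+ polysomes, against 61218, 28890 and 94263 in Rps19flox/+, at 0.210-fold (limma adjusted p = 0.0351). Rpl41 was at 0.274-fold (limma adjusted p = 0.0105), and Rpl35a, Rpl37, Rpl37a and Rpl36 at 0.282-fold to 0.409-fold. The groups of Rpl38 did not overlap, but its call depended on the libraries used. Dropping Rps19flox/+ replicate 1 or 3, or any 1 VavCre Rps19flox/+ replicate, removed it (limma adjusted p from 0.1 to 0.21). The same 5 omissions each removed the calls of Rpl35a and Rpl37. Among them, 4 removed the call of Rpl37a and 3 that of Rpl41. Rpl38 was also not called with log2 of count plus 1 (limma adjusted p = 0.0535) or without the filter (0.0797). Between 0 and 8 members were called lower when 1 library was left out. There were 0 without Rps19flox/+ replicate 1 or VavCre Rps19flox/+ replicate 2 or 3, 1 without Rps19flox/+ replicate 3 and 2 without VavCre Rps19flox/+ replicate 1. Depth was 33.6, 20.5 and 29.6 M reads in VavCre Rps19flox/+, against 12.6, 16.1 and 4.59 M in Rps19flox/+. Lars2 took 0.306%, 1.57% and 0.552% in VavCre Rps19flox/+, against 5.71%, 3.22% and 17.3% in Rps19flox/+, so genotype, depth and Lars2 share cannot be told apart here either. Erythroid genes summed to 5502 to 9481 k on VavCre Rps19flox/+ Ter119+ polysomes, against 11182 to 17405 k on Rps19flox/+, and granulocyte and monocyte genes to 1.46 to 2.03 k in VavCre Rps19flox/+, against 3.17 to 6.94 k in Rps19flox/+; their part was not tested.

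Among Ter119+ polysomes, the libraries labelled VavCre Rpl5flox/+ had 21 members higher than in Rpl5flox/+ and none lower, while 2.96% of all genes were called higher and 10.3% lower. The unadjusted limma counts were 24 and 1. Rpl38 had 263676, 127592 and 315501 counts in those libraries, against 18622 and 29195 in Rpl5flox/+ Ter119+ polysomes. Each of the 3 was above both controls, at 9.42-fold (3.24 ± 0.48 SE, limma adjusted p = 0.000806). Rpl35a had 113459, 54616 and 88864 counts, against 14907 and 16686 in Rpl5flox/+, at 5.19-fold (limma adjusted p = 0.000974). Rpl36 was 4.93-fold higher. Depth was 4.80, 19.1 and 1.02 M reads in the libraries labelled VavCre Rpl5flox/+ Ter119+, against 15.4 and 39.8 M in Rpl5flox/+. Lars2 took 10.3%, 1.37% and 35.1% in the labelled libraries, against 4.47% and 0.165% in Rpl5flox/+. In the same libraries erythroid genes summed to 4518 to 9061 k, against 21312 to 46227 k in Rpl5flox/+, granulocyte and monocyte genes to 36.1 to 88.6 k, against 4.13 to 5.92 k, and hepatocyte genes to 41.6 to 153 k, against 21.7 to 29.0 k. No marker of these 3 lists was at 0 throughout either group, and their part in the polysome values was not tested. Against cytoplasm of the same pool, limma called no member for either line in Ter119+ cells. The unadjusted counts were 8 upwards and 10 downwards in the Rpl5 line and 2 upwards and 17 downwards in the Rps19 line, where 0% and 0.00918% of all genes were called upwards and 0.00918% downwards in each. Without VavCre Rpl5flox/+ Ter119+ pool 2, 4 members were called downwards in the Rpl5 line, and without Rps19flox/+ Ter119+ pool 2, 1 in the Rps19 line.

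On Kit+ polysomes the Rpl5 line had 1 VavCre library, assumed in the fit to vary like the other groups. Limma called none of the 40 members in either direction, and none had an unadjusted p under 0.05, while 1.39% of all genes were called higher and 0.426% lower. Rpl38 had 216498 counts in that library, against 194929, 212052 and 182892 in Rpl5flox/+. The value lay above the controls by less than their range.

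**Figure D5:**
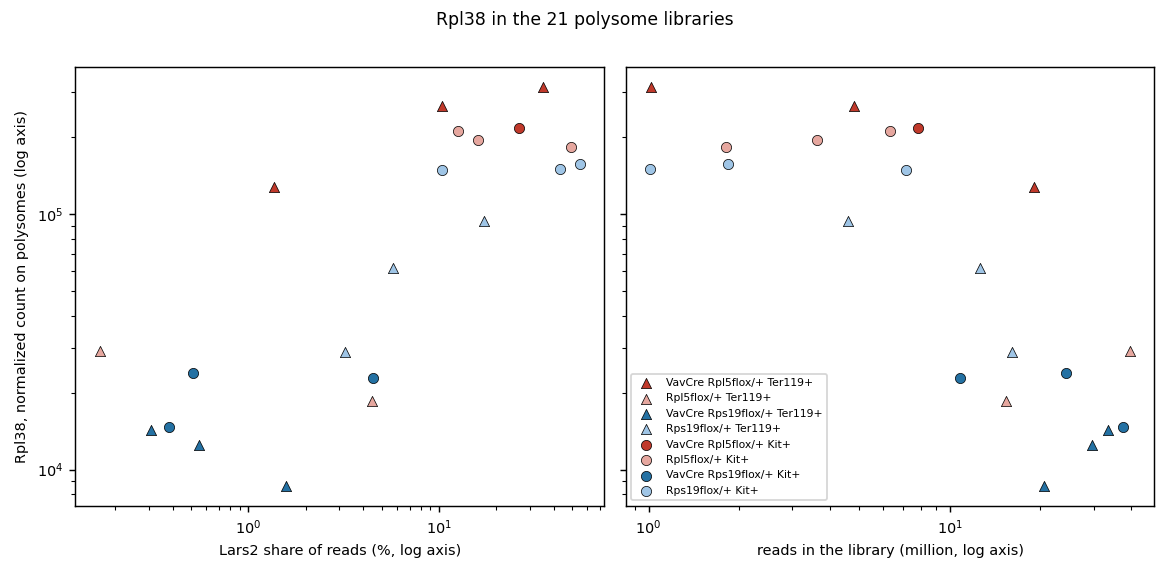
Rpl38 normalised count in the 21 polysome libraries against the Lars2 share of reads (left) and the reads in the library (right), all axes logarithmic; triangles are Ter119+ and circles Kit+ pools, coloured by genotype. The 3 VavCre Rps19flox/+ Kit+ libraries (14697 to 23761) lie at a Lars2 share of 0.382% to 4.51%, and the Kit+ control libraries (149337 to 212052) at 10.3% to 54.9%.

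Assembly factors and other TOP mRNAs were read beside the members. In VavCre Rps19flox/+ Kit+ cytoplasm 13 of 27 large-subunit assembly factors rose and 2 fell, led by Bop1 (1.29 ± 0.09 SE, limma adjusted p = 3.28e-07), part of the complex that processes large-subunit ribosomal RNA, while 27.6% of all genes were called higher and 26.1% lower. In VavCre Rps19flox/+ Ter119+ cytoplasm 16 of 27 rose and 1 fell, with Wdr12, a partner of Bop1, at 1.23 (limma adjusted p = 7.99e-05), where 1 of 40 members was called and 12.5% of all genes were called higher and 13.3% lower. In the libraries labelled VavCre Rpl5flox/+ Ter119+ 21 were higher and 1 lower, while 35.3% of all genes were called higher and 30.1% lower. Other TOP mRNAs were 2 higher and 10 lower of 20 in VavCre Rps19flox/+ Kit+ cytoplasm (median -0.36), with Eef2, an elongation factor, higher (0.70) and Vim, an intermediate filament protein, lower (-1.01). Among the regulators of TOP mRNAs, 2 were named there for their small adjusted p, and the others are not described for this comparison. Mtor rose (1.20 ± 0.12 SE, limma adjusted p = 5.25e-06), as did Rptor (0.79), its partner. The P-stalk mRNAs Rplp0, Rplp1 and Rplp2 all rose with the Rpl5 deletion in Kit+ cytoplasm (0.43 to 0.50).

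Several members lie where counting is uncertain. Rpl18, Rpl19, Rpl23a, Rpl24, Rpl31, Rpl32, Rpl35 and Rpl35a overlap another gene of the table (Sphk2, Cacnb1, Tlcd1, Zbtb11, Tbc1d8, Cand2, Wdr38 and Iqcg in that order). Whether counting used the strand is not given in the sources used here, so reads of overlapping genes cannot be told apart. Ribosomal protein genes also have many processed copies in the genome, and how such reads were assigned is not given either. The row Rpl9-ps6 held 0 to 17.8 counts in cytoplasm and 0 to 3527 on polysomes, where Rpl9 held 11326 to 28158. The row Rpl36a-ps1 held 6.13 to 45.4 counts in cytoplasm and 0 to 674 on polysomes, where Rpl36a held 8480 to 52262. The part of these rows in the polysome values of both genes was not tested.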

How the data were processed

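RNA from polysome and cytoplasm fractions was captured by poly(A), built into libraries and sequenced as 100 bp paired-end reads, per the labels' protocols; mm10 is the build in the submitters' processing notes, and neither aligner nor counter is named there. The deposited values are log2-scale, variance-stabilised expression of 13449 genes in 45 libraries, as the values show. Inverting them gave normalised counts that were whole multiples of 1 step per library for 100.0% of values (tolerance 1e-06), from which read totals were summed. The deposited log2 values were tested in R 4.3.3 by limma, version 3.58.1 (linear fits, moderated by eBayes along the mean-variance trend, and Benjamini-Hochberg adjustment over genes with a mean normalised count of at least 10), the 4 genotypes of a cell type and fraction sharing 1 fit. Polysome minus cytoplasm was taken within each pool. A fold is 2 to the power of the log2 difference and understates low genes. The genotype tests were also tried on simulated data, and the outcome is not given here.

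Members, lists and tests were chosen with earlier results of these data known. Named genes are the 4 members with the largest difference each way and the 4 with the smallest adjusted p per comparison, those called against the majority, and up to 2 of each other list; Cdkn1a, Rpl10-ps3 and Rpl7l1 were added after their values were seen. No 2 replicates agreed within sampling noise (lowest chi-square per degree of freedom 22.28 over 43 pairs). Same-numbered VavCre and floxed pools deviated together in the Rpl5 line's cytoplasm (correlations 0.244, 0.255 and 0.305 in Kit+ and 0.134, 0.273 and 0.153 in Ter119+). In the Rps19 line's Ter119+ cytoplasm the correlations were 0.363, 0.00809 and 0.0506. In its Kit+ cytoplasm they were 0.0112, -0.0385 and -0.0126. The fits given in the results did not use this pairing. In the Rpl5 line's Kit+ and Ter119+ cytoplasm a replicate block gave 27 and 39 members called higher, against 25 and 38 without it. Alternatives were log2 of count plus 1, no filter, rescaling, array weights, the block, each library left out and libraries under 2 M reads left out. Planned values per coding length were not computed, as lengths were not used here.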

Additional observations from a re-analysis of the deposited data

Results flagged for a closer look

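Tests of a difference between the lines or the cell types drew attention to these values. The Rpl5 effect was above the Rps19 effect for 28 members in Kit+ cytoplasm, with Rpl3 (-0.46) and Rpl10 (-1.58) below. In Ter119+ cytoplasm the difference of the libraries labelled VavCre Rpl5flox/+ from Rpl5flox/+ was above the Rps19 effect for 37 members. It was above the Rpl5 effect in Kit+ cytoplasm for 36 members. The Rps19 effect in Ter119+ was above its Kit+ size for 3 members and below it for Rpl10 (-0.74). Polysome minus cytoplasm was lower in control Ter119+ than in control Kit+ pools for 12 members, and higher for Rpl4 (0.80) and Rpl35 (0.91). The causes of these differences were not tested.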

How the results depend on the processing

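The tally here covers 116 results, each 1 called member in 1 comparison, and leaves out the counts of members. They gave 1697 values under settings with 1 choice changed. Of these, 1546 kept their direction and side of the threshold, 147 kept the direction without the call, and 4 turned round. The cause was not tested. Those 4 concern Ter119+ against Kit+ control cytoplasm (Rpl10 -0.24 and Rpl41 -0.065 rescaled, Rpl10 -0.36 with Rpl10-ps3 added) and the Rpl5 minus Rps19 effect in Kit+ cytoplasm (Rpl10 0.068 with Rpl10-ps3 added). With rows summed, 0 members were called higher in VavCre Rps19flox/+ Ter119+ cytoplasm. With array weights, 4 members were lower on VavCre Rps19flox/+ Kit+ polysomes, 12 on VavCre Rps19flox/+ Ter119+ polysomes, and 7 in the polysome difference of Ter119+ against Kit+ controls; the change against cytoplasm called 2 lower with VavCre Rps19flox/+ in Kit+, 7 in Ter119+, and 3 with the label VavCre Rpl5flox/+ in Ter119+. Rescaling gave 35 higher on polysomes labelled VavCre Rpl5flox/+ Ter119+ and 1 lower against cytoplasm with VavCre Rps19flox/+ in Ter119+. Without libraries under 2 M reads, 12 were lower on VavCre Rps19flox/+ Ter119+ polysomes and 7 against cytoplasm; without the filter, 3 on those polysomes. The 3 members whose Rps19 effect was above in Ter119+ became 1 without the filter and 5 rescaled. They became 7 with array weights and 0 with the replicate block. In that comparison the block joined same-numbered Kit+ and Ter119+ pools of a genotype. In genotype comparisons within 1 cell type and fraction it joined same-numbered VavCre and floxed pools of a line. The block changed no other count by over 1.5 times. Leaving out 1 library gave 16 to 25 members higher in VavCre Rpl5flox/+ Kit+ cytoplasm, 0 to 1 in VavCre Rps19flox/+ Ter119+ cytoplasm, 0 to 8 lower on VavCre Rps19flox/+ Ter119+ polysomes, 7 to 12 in the polysome difference between cell types, 6 to 9 in the change with VavCre Rps19flox/+ in Kit+ pools, 0 to 1 in Ter119+ pools, 0 to 4 in the change labelled VavCre Rpl5flox/+ Ter119+, and 0 to 5 in the Rps19 effect between cell types. Rescaling moved the median of all genes in the comparison labelled VavCre Rpl5flox/+ Ter119+ cytoplasm to 0.76 and that of the members to 1.55; on those polysomes these were -0.02 and 1.98, and in polysome minus cytoplasm of control Kit+ pools -1.0 and 1.34. A fit without the 1 VavCre Rpl5flox/+ Kit+ polysome library could not be made. Polysome libraries of 1.01 to 2 M reads limit low members such as Rpl10 and Rpl12.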
